A study of Mus musculus with 6 samples.

Results

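The genes of DNA replication licensing and of the replication fork were followed across 6 mouse leukaemia arrays. The set held 41 genes named by function, and a gene was measured where the platform annotation gave a probe set to its symbol alone. That gave 40 of the 18193 genes in the comparison, and Chaf1a was not analysed here. Where a gene had several probe sets, the brightest on average was used. Values are log2 expression levels, and a difference is the mean of the Cdh1-deficient minus that of the Cdh1-intact arrays.

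Before S phase the origin recognition complex, Cdc6 and Cdt1 load the Mcm2 to Mcm7 helicase onto origins, a step called licensing, and geminin blocks Cdt1 so that an origin is not licensed again in the same cycle. The kinase Cdc7 with Dbf4, together with Cdc45 and the GINS complex, then turns the loaded helicase into a moving fork, where polymerases, the clamp Pcna and its loader copy the strands. Cdh1, encoded in the mouse by Fzr1, directs the anaphase-promoting complex (APC/C), a ubiquitin ligase, to its targets in late mitosis and G1, and Cdc6, geminin, Cdt1, Dbf4 and claspin are known among those targets at the protein level. Transcripts of many of these genes are driven by E2F factors at the G1/S transition.

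All mice were C57BL/6. The marrow donors were homozygous for a conditional gene trap in Cdh1 that holds a floxed cDNA. Cdh1-deficient cells came from donors that also carried Mx1-Cre, a Cre recombinase under an interferon-inducible promoter, and Cdh1-intact cells from littermates without it. Donors of both genotypes received pIpC, which induces Mx1-Cre, at an age of 7 to 8 weeks. Their marrow was taken 4 weeks after the last injection and 2 days after 150 mg/kg 5-fluorouracil. N-myc was introduced with a retroviral vector, so all leukaemias of both groups share it. RNA was taken from sorted GFP-positive marrow mononuclear cells of moribund mice, with 3 arrays per group and 1 mouse per array. The p-values therefore measure the spread between these moribund mice. How many marrow donors they trace back to is not stated here. The labels call all 6 samples B cell leukaemia. Arrays are called intact or deficient below, with the number in their label.

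The number of arrays limited the precision. Fzr1 itself lay at 8.92, 8.04 and 8.92 on the intact and 8.10, 7.73 and 8.22 on the deficient arrays, and the 2 ranges overlapped. The place of its probes relative to the trap was not given in the sources used here, so these values check no label. Intact array 2 went against its label in lineage: the mean of 7 B-lineage markers was 4.59 there and 8.71 to 9.47 on the other arrays, and that of 6 T-lineage markers was 11.16 against 5.25 to 7.92. Intact array 1 carried the highest means of 6 macrophage markers (7.54 against 4.99 to 6.27) and 4 erythroid markers (6.92 against 4.67 to 5.66). All 6 T-lineage markers were lower in deficient cells, with a median difference of −3.26. The groups did not overlap for 5 (5.09% of all genes were separate and lower), and none passed the adjusted test. On intact array 3 Cd3g, of the T cell receptor complex, lay at 7.95 and the granzyme gene Gzma at 8.33, against 3.31 to 3.52 and 4.16 to 4.36 on the deficient arrays. Intact array 1 lay near the deficient arrays, with a T-lineage mean of 5.74 against 5.25 to 5.35, Cd3g at 3.25 and Gzma at 4.40. Cd2 stood further off there, at 10.51 against 8.88 to 9.74. The part of these lineage markers in the results below was not tested. In such bulk samples fewer cells of a type and less RNA per cell cannot be told apart.

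No replication gene passed the test when the groups were compared. With limma and Benjamini-Hochberg adjustment over all genes, 0 of 40 had an adjusted p under 0.05 (0.00% of all genes), and the lowest adjusted p of the 40 was 0.849. Before adjustment 3 had a p under 0.05, Pole, Rfc1 and Rfc2, all higher in deficient cells, which is 7.5% of the members beside 5.50% of all genes. All 40 members lay in the upper part of the array by mean level, split at the median gene, and 8.38% of the 9097 genes there had such a p. The 40 differences lay between −0.19 (Chaf1b) and 0.61 (Pole), with a median of 0.07 beside 0.0034 over all genes, and 25 of the 40, or 62.5%, were above 0 where 50.9% of all genes were. Among the 9097 more highly expressed genes the median was 0.09 and 62.5% were above 0, the same share as of the members. The 3 deficient arrays all lay above the 3 intact arrays for 4 members, Pole, Rfc1, Rfc2 and Dbf4 (6.65% of all genes), and below them for 0 (5.09% of all genes), or 11.7% of all genes in either direction. Of the more highly expressed genes 9.88% were separate and higher and 4.03% separate and lower, beside 4 and 0 of the 40 members. The 95% interval of a difference, before adjustment, extended a median of 0.54 to either side. For many members a smaller change in either direction could therefore not be told from none.

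The mean over the 40 genes was 9.82, 10.39 and 10.41 on intact arrays 1, 2 and 3 and 10.37, 10.18 and 10.36 on the deficient arrays. The low value was that of intact array 1 alone, and the groups overlapped. That array held the lowest of the 6 values for 32 of the 40 genes, or 80.0%, beside 20.1% of all genes and 28.8% of the more highly expressed genes, and the highest value for none of them. The 8 genes whose lowest array was another were Cdt1, Gmnn, Dbf4, Pola2, Prim2, Pcna, Rpa3 and Fen1. The within-group SD was wider among the intact arrays, with a median of 0.38 over the members, than among the deficient arrays, with 0.17. Over all genes the medians were 0.21 and 0.15.

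Without intact array 1 the picture turned. That array held the lowest value of most members, so leaving it out had to lower their differences. The median difference of the 40 genes became −0.16, with 9 above 0 in place of 25, and 16 genes that had been higher in deficient cells were then lower. The deficient arrays lay below both remaining intact arrays for 14 genes (10.4% of all and 10.1% of the more highly expressed genes in that setting) and above them for 4 (12.0% and 14.7%). Without intact array 2, the one with T-lineage transcripts, the median was 0.18 and 34 genes were above 0, with 6 genes above (11.2% of all and 15.6% of the more highly expressed genes) and 1 below (10.2% and 8.50%) the remaining intact arrays. Without intact array 3 the median was 0.21 and 34 genes were above 0. The direction of the replication genes as a group therefore depended on whether intact array 1 was included.

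**Figure D1:**
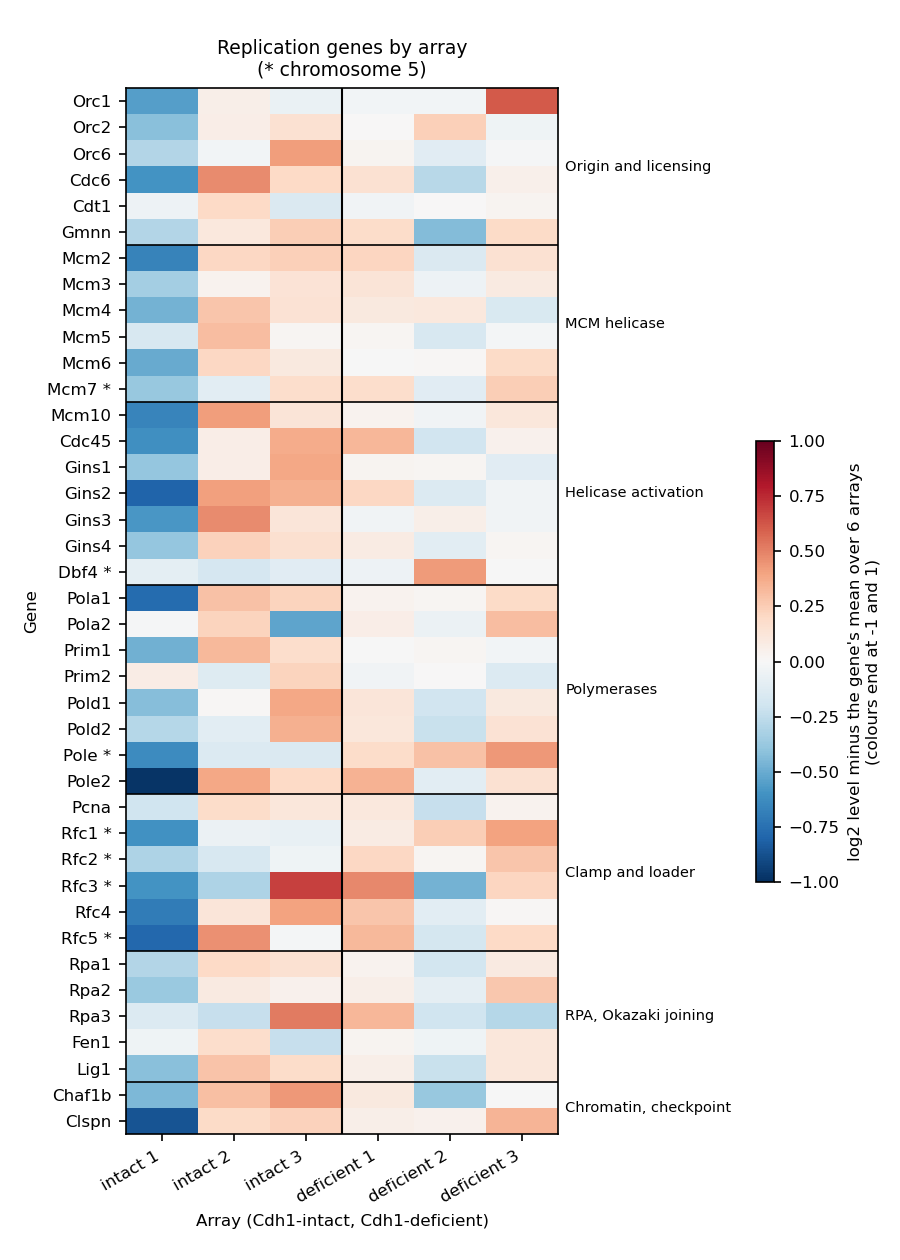
Log2 level of each of the 40 replication genes (rows, in the order of their roles) on each of the 6 arrays (columns), as the deviation from the gene's own mean over the arrays, with blue below and red above. Cdh1-intact array 1 is blue in most rows (the lowest array for 32 of 40 genes), and genes of chromosome 5 carry an asterisk.

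Of the 6 genes of origin recognition and licensing 2 were higher and 4 lower in deficient cells, with a median difference of −0.02. Orc1, the largest subunit of the origin recognition complex and an ATPase, lay at 7.05, 7.66 and 7.54 on the intact and 7.57, 7.58 and 8.21 on the deficient arrays. Deficient array 3 was the highest, and the other 2 deficient arrays lay within the intact range, for a difference of 0.37 (SE 0.25, adjusted p = 0.849). The difference was 0.16 without that array and 0.19 without intact array 1, and a second Orc1 probe set went the other way, at −0.43. Orc2 and Orc6, other subunits of the same complex, differed by 0.13 (SE 0.18) and −0.07 (SE 0.19), with overlapping groups. The promoter of Orc1 is shown because Orc1 had the lowest p among members whose promoter window held an E2F match. That of Cdc6 is shown beside it, outside that rule, as that of an APC/C-Cdh1 target. Each is the 250 bases before the start site in RefSeq's GRCm38.p6 table, written 5′ to 3′ on the gene's strand, with E2F matches (TTTCCCGC, TTTGGCGC, TTTCGCGC or TTTGCCGC) and CCAAT boxes on either strand in capitals.
Orc1 (chr4:108579204-108579453, + strand): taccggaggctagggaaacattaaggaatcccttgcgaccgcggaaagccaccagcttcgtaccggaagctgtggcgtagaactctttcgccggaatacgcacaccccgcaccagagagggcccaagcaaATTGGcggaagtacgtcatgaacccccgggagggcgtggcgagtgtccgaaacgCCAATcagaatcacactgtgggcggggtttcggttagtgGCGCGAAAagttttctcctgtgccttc
Cdc6 (chr11:98907901-98908150, + strand): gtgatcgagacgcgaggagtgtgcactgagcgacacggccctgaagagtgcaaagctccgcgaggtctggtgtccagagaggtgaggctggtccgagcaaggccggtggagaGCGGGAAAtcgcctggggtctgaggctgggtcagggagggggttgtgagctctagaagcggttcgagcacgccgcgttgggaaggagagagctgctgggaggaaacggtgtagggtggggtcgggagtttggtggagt
In Orc1 the E2F match GCGCGAAA lies 27 to 20 bases before the start, and in Cdc6 the match GCGGGAAA lies 138 to 131 bases before it.

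Of the 5 known APC/C-Cdh1 targets 2 had transcripts higher in deficient cells, with a median difference of −0.0018, and none passed the test. Cdc6, the ATPase that loads the helicase together with Cdt1, lay at 9.04, 10.11 and 9.84 on the intact and 9.79, 9.36 and 9.69 on the deficient arrays, for a difference of −0.05 (SE 0.30). Both the lowest and the highest value belonged to intact arrays. Cdt1, the licensing factor itself, was the flattest member, at 11.73, 11.98 and 11.64 against 11.75, 11.79 and 11.82. Its difference was −0.0018 with a 95% interval of −0.30 to 0.29, and the deficient values lay inside the intact range. Gmnn, which encodes the Cdt1 inhibitor geminin, lay at 11.04, 11.44 and 11.58 against 11.52, 10.90 and 11.53 (difference −0.04, 95% interval −0.60 to 0.53), with deficient array 2 the lowest. Clspn, which encodes claspin, an adaptor for the checkpoint kinase Chk1 at the fork, lay at 8.47, 9.53 and 9.57 against 9.40, 9.38 and 9.68. Only intact array 1 was low, and the difference of 0.29 (SE 0.32) became −0.065 without that array and −0.0010 with the mean of both Clspn probe sets.

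Dbf4, the regulatory subunit that activates the Cdc7 kinase, was the only one of these 5 whose groups did not overlap. It lay at 10.61, 10.54 and 10.59 on the intact and at 10.66, 11.14 and 10.71 on the deficient arrays. The gap between the groups was narrow, and deficient array 2 was well above the rest. The difference of 0.25 (SE 0.15, adjusted p = 0.849) was 0.10 without that array. The arrays measured RNA, and the levels of the proteins on which the ligase acts were not measured.

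The MCM helicase genes were higher in deficient cells in 5 of 6 cases, by a median of 0.12, and the groups overlapped for all 6. Mcm2 lay at 10.36, 11.24 and 11.27 on the intact and 11.24, 10.88 and 11.18 on the deficient arrays. The single low value was that of intact array 1, and the difference of 0.14 became −0.15 without it. Mcm7, with the largest difference of the 6, lay at 12.23, 12.51 and 12.78 against 12.78, 12.49 and 12.86, for a difference of 0.21 (SE 0.18). Mcm5, which was lower by 0.11 (SE 0.15), lay at 11.71, 12.18 and 11.90 against 11.89, 11.71 and 11.85. Mcm3, Mcm4 and Mcm6 differed by 0.03 to 0.13. Without intact array 1 the median of the 6 was −0.12 and only Mcm7 remained higher. The Mcm7 promoter is printed as that of the member with the second lowest p among those with an E2F match, with the same marking.
Mcm7 (chr5:138171884-138172133, − strand): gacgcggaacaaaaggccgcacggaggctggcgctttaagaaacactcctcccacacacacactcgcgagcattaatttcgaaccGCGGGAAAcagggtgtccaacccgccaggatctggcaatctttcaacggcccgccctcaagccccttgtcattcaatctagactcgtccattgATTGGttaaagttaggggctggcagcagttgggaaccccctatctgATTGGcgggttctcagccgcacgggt
Its E2F match, GCGGGAAA, lies 165 to 158 bases before the start, and its CCAAT boxes, both as ATTGG, lie 72 to 68 and 26 to 22 bases before it.

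Helicase activation genes other than Dbf4 lay close to 0. Gins1, Gins2, Gins3 and Gins4, the subunits of the GINS complex, differed by −0.04, 0.02, −0.01 and −0.0033, Cdc45, the other partner of the active helicase, by 0.12 (SE 0.28) and Mcm10, which helps to activate it, by 0.07 (SE 0.28). In all 6, intact array 1 was the lowest. Gins2 lay at 8.30, 9.50 and 9.45 on the intact and at 9.30, 8.95 and 9.06 on the deficient arrays. Gins3 lay at 6.82, 7.87 and 7.52 against 7.36, 7.45 and 7.36. In both genes the deficient arrays lay between intact array 1 below and the other 2 intact arrays above. Without intact array 1 the differences of Gins2 and Gins3 were −0.37 (SE 0.14) and −0.30 (SE 0.14), with an adjusted p of 0.787 for each from limma.

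Pole, the catalytic subunit of the leading-strand polymerase epsilon, had the largest difference and the lowest p of the members. It lay at 9.33, 9.81 and 9.81 on the intact arrays, a mean of 9.65 ± 0.28 (SD, n = 3). On the deficient arrays it lay at 10.14, 10.25 and 10.39, a mean of 10.26 ± 0.12 (SD, n = 3). Every deficient array was above every intact array, and the difference was 0.61 (SE 0.17, 95% interval 0.20 to 1.02). It did not pass in limma (adjusted p = 0.849, unadjusted p = 0.0113). Leaving out each array in turn gave differences of 0.45 to 0.69. Pole has a single probe set.

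For the other 7 polymerase and primase genes the groups overlapped. Pole2, the second subunit of the same enzyme, lay at 7.96, 9.33 and 9.14 on the intact and at 9.29, 8.83 and 9.09 on the deficient arrays, for a difference of 0.26 (SE 0.38) that became −0.16 without intact array 1. Its level on intact array 1 minus the mean of the other 5 arrays was −1.18, the widest such gap among the members. Pola1 and Pola2, subunits of the primer-extending polymerase alpha, differed by 0.17 (SE 0.30) and 0.21 (SE 0.22), or by −0.18 and 0.26 without intact array 1. The primase genes Prim1 and Prim2, which make the RNA primers, differed by −0.01 (SE 0.22) and −0.11 (SE 0.12). Prim2, one of the 3 lowest differences, lay at 9.74, 9.54 and 9.89 against 9.63, 9.67 and 9.53, with overlapping groups, although another of its probe sets, at −0.27, did not overlap. Pold1 and Pold2, of the lagging-strand polymerase delta, both differed by under 0.03.

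The clamp and its loader had a median difference of 0.19, with 5 of 6 genes higher in deficient cells. Without intact array 1 the median was −0.11 with 2 of 6 higher, and without deficient array 1 it was 0.07. Rfc1, the large subunit that opens the clamp, lay at 9.54, 10.08 and 10.07 on the intact arrays and at 10.22, 10.39 and 10.54 on the deficient arrays. The groups did not overlap, and the difference was 0.49 (SE 0.19, limma adjusted p = 0.849, unadjusted p = 0.0393). It depended on the probe set: the other 2 Rfc1 probe sets gave 0.30 and 0.12 with overlapping groups, the mean of all 3 gave 0.30, and the difference without intact array 1 was 0.31. Rfc2, a small subunit of the loader, lay at 10.37, 10.52 and 10.64 against 10.89, 10.70 and 10.96, for a difference of 0.34 (SE 0.12, limma adjusted p = 0.849, unadjusted p = 0.0339). All 3 Rfc2 probe sets, at 0.34, 0.37 and 0.43, had groups that did not overlap.

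The remaining small subunits overlapped widely. Rfc3 lay at 8.50, 8.80 and 9.79 against 9.59, 8.63 and 9.32, with high and low arrays in both groups. Rfc5 lay at 9.45, 10.69 and 10.21 against 10.56, 10.06 and 10.43, and its difference of 0.23 became −0.10 without intact array 1. Rfc4 differed by 0.12 (SE 0.30), or by −0.20 without that array. Pcna, the clamp on which the loader acts, lay at 12.76, 13.14 and 13.07 against 13.06, 12.72 and 12.99, a difference of −0.06 (SE 0.15) with the lowest value on deficient array 2. The Rfc1 promoter is shown, outside the rule, because among the members with separate groups it held a MYC E-box (CACGTG), which Dbf4 did not; no window was listed for Pole and Rfc2. The E-box and the CCAAT box are in capitals.
Rfc1 (chr5:65335640-65335889, − strand): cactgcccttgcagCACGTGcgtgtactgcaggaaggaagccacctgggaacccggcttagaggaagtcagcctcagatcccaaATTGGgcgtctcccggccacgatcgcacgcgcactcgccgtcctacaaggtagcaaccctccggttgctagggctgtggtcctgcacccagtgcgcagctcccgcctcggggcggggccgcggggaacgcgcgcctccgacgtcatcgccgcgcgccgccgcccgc
The E-box lies 236 to 231 bases before the start.

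The genes for single-strand binding and for joining lagging-strand fragments had a median difference of −0.04, with 2 of 5 higher. Rpa1, Rpa2 and Rpa3, which coat single-stranded DNA, differed by −0.04, 0.16 and −0.10. Fen1, the flap endonuclease that trims Okazaki fragments, differed by 0.07 (SE 0.13) and Lig1, the ligase that seals them, by −0.04 (SE 0.22). Lig1 lay at 10.42, 11.13 and 11.03 on the intact and at 10.90, 10.62 and 10.96 on the deficient arrays, once more with intact array 1 the lowest. Chaf1b, a subunit of the chromatin assembly factor that places histones behind the fork, had the lowest difference of all members, −0.19 (SE 0.27). It lay at 8.20, 8.95 and 9.08 against 8.74, 8.27 and 8.64, and the groups overlapped, with intact array 1 the lowest of the 6. Without that array the difference was −0.46 (SE 0.18, limma adjusted p = 0.787).

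**Figure D2:**
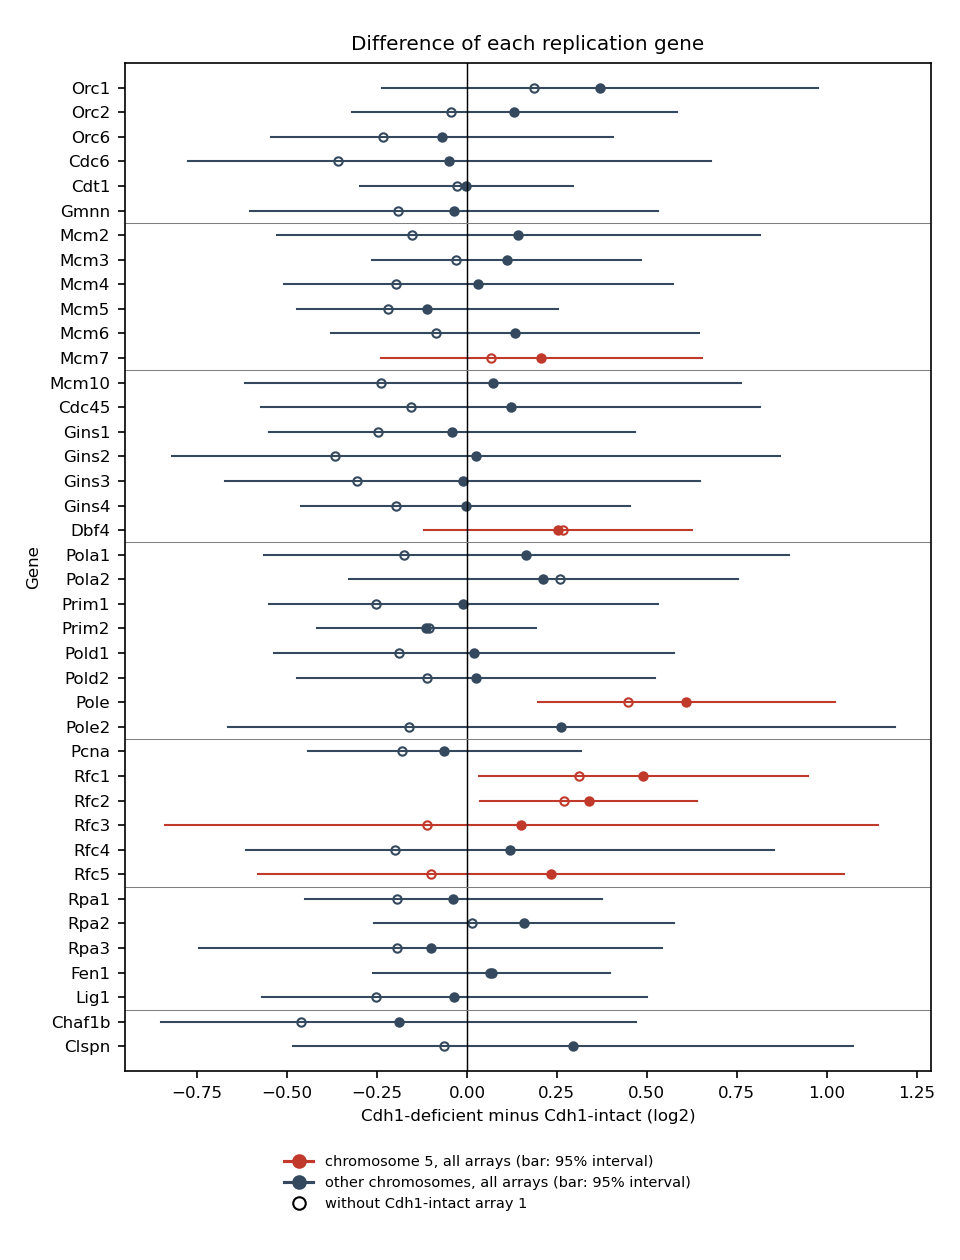
Difference of each replication gene, Cdh1-deficient minus Cdh1-intact in log2 (filled points with 95% intervals, 3 arrays per group), and the same difference without Cdh1-intact array 1 (open circles). The intervals of Pole, Rfc1 and Rfc2 lie above 0 before adjustment, and most open circles lie left of their filled points, with 9 above 0.

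The members that separated the groups shared a chromosome. By RefSeq's gene table for GRCm38.p6, 7 of the 40 lie on chromosome 5: Dbf4, Mcm7, Pole, Rfc1, Rfc2, Rfc3 and Rfc5. All 7 were higher in deficient cells, with a median difference of 0.25, and they included the 4 whose groups did not overlap. Of the 33 members on other chromosomes 18 were higher (54.5%), with a median of 0.02, and none had groups that did not overlap. On those chromosomes 1.99% (chromosome 13) to 8.92% (chromosome 4) of all genes were separate and higher. Among the more highly expressed genes of all chromosomes 62.5% were above 0, 9.88% were separate and higher and 4.03% separate and lower. Of all 1121 genes of chromosome 5, 23.3% had every deficient array above every intact array, and their median difference was 0.14. Among the 607 of these in the more highly expressed part of all genes, split at the median by mean level, the share was 39.5%, with a median difference of 0.36. The 4 of 7 members are to be read against these shares, and no test was made of the difference between chromosomes.

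**Figure D3:**
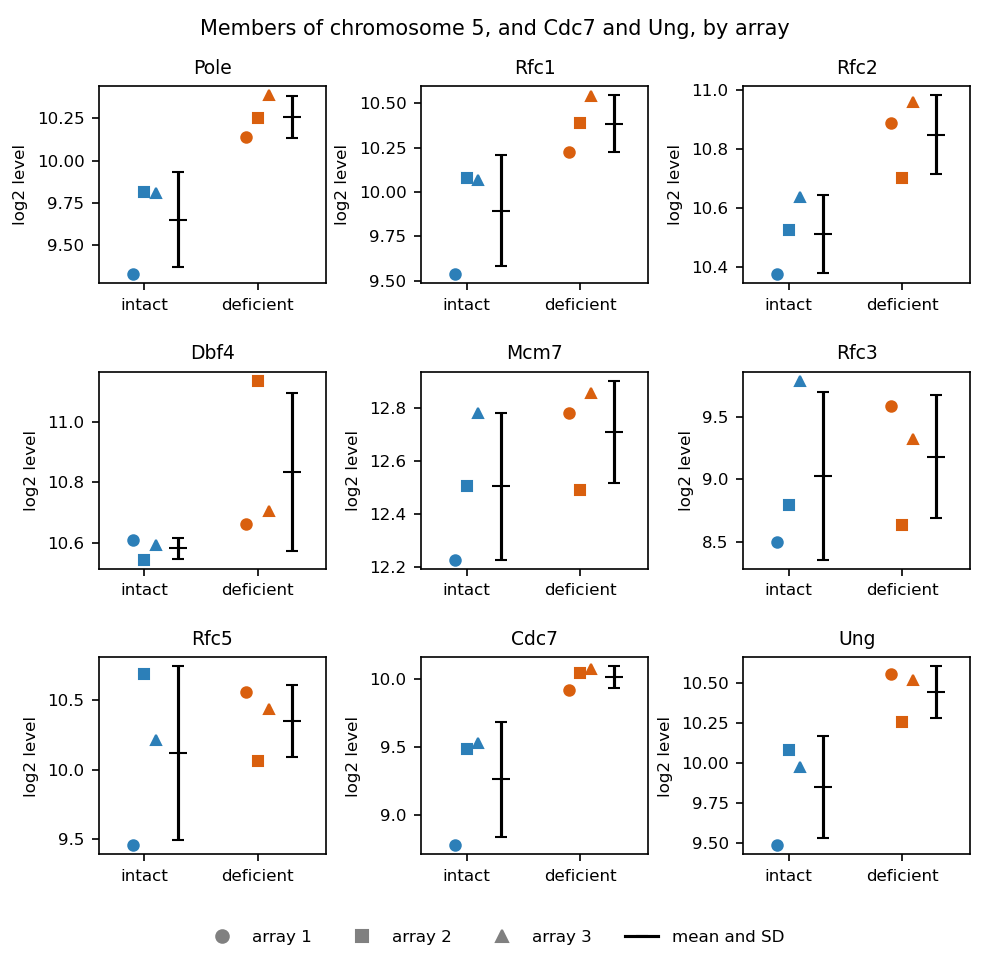
Log2 level of the 7 members on chromosome 5 and of Cdc7 and Ung, other replication genes of that chromosome, on each array, with the group mean and SD (n = 3 each) beside the points. Pole, Rfc1, Rfc2, Dbf4, Cdc7 and Ung show no overlap between the groups, and Mcm7, Rfc3 and Rfc5 overlap.

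Without intact array 1 the medians by chromosome lay further apart. The 7 members of chromosome 5 then had a median difference of 0.27 with 5 of 7 above 0, Rfc3 and Rfc5 being lower. The 33 others had −0.19, with 4 of the 33 above 0. Of the more highly expressed genes 57.2% were then above 0, and of those on chromosome 5 84.5%. The median of the 7 was that of Dbf4 in both settings, at 0.25 and 0.27. All other chromosome 5 members had smaller or reversed differences without that array. Pole fell from 0.61 to 0.45 and Rfc1 from 0.49 to 0.31. Levels were also taken relative to the mean of the 33 members on the same array. On that scale Pole was at −0.45, −0.57 and −0.58 on the intact arrays and −0.16, 0.14 and 0.10 on the deficient arrays. Rfc1 was at −0.24, −0.31 and −0.32 against −0.08, 0.28 and 0.26. For both genes the intact arrays agreed closely on this scale, array 1 included, and the groups did not overlap. Of the 7, 2 were thus above (2.89% of all genes, 11.5% of those on chromosome 5 and 19.9% of the more highly expressed genes of that chromosome) and 0 below (2.61% of all genes). Rfc2 overlapped at intact array 1 (0.60 against 0.59 to 0.68), as did Dbf4. A ratio within an array shows unequal change and does not say which of its terms moved.

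The low replication transcripts of intact array 1 went with some other signs measured on the same array. Of 8 cell cycle markers 4 had their lowest value there, Mki67, Top2a, Ccne2 and Ccnd3, beside 28.8% of the more highly expressed genes. Top2a, a topoisomerase abundant in dividing cells, lay at 10.76 on it and at 11.43 to 11.66 elsewhere. The other markers were lowest on another array. Ccna2, which encodes cyclin A2, lay at 11.54 on intact array 1, above intact array 2. Ccne1 lay at 9.90 there and at 9.41 on intact array 2. Cdk1 lay at 10.88 there and at 10.77 on deficient array 2, and Bub1 at 9.97 and at 9.93 on deficient array 1. The 8 markers all had a difference above 0, with a median of 0.24, and none passed the test. Of the more highly expressed genes 62.5% were above 0 and 9.88% separate and higher. The groups did not overlap for 1 marker, Ccna2, at 11.54, 11.12 and 11.73 against 11.83, 12.24 and 12.23. Its difference was 0.63 (SE 0.20, limma adjusted p = 0.849, unadjusted p = 0.0212). The macrophage markers were highest on that array in 5 of 6 cases and the erythroid markers in 3 of 4. Among them Alas2, the haem synthesis enzyme of erythroid cells, lay at 9.31 against 4.82 to 5.61 elsewhere and the complement gene C1qa at 7.63 against 4.50 to 5.33, whereas the globin gene Hba-a1 lay near the floor on all 6 arrays (3.27 to 3.61). The list mean of the macrophage markers ran from 4.99 to 7.54 over the intact and from 5.83 to 6.27 over the deficient arrays. That of the erythroid markers ran from 4.67 to 6.92 and from 4.80 to 5.66. The part of these markers in the low replication values was not tested.

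On intact array 2, where B-lineage markers were lowest in 7 of 7 cases and T-lineage markers highest in 6 of 6, replication genes were not low. That array held the highest value for 17 of the 40 members, or 42.5%, beside 21.6% of the more highly expressed genes. Mcm5 and Mcm10 were among these, at 12.18 and 9.50. Intact array 3 held the highest value for 13 members, or 32.5%, beside 16.7% of the more highly expressed genes. Neutrophil markers were lowest on intact array 2 in 7 of 8 cases, with a list mean of 6.35 against 9.77 to 11.58. They were highest on deficient array 2 in 8 of 8. Deficient array 2 had the lowest member mean of its group, 10.18, with Gmnn and Pcna at their lowest of the 6 arrays. The part of these cell types in the member values was not tested.

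**Figure D4:**
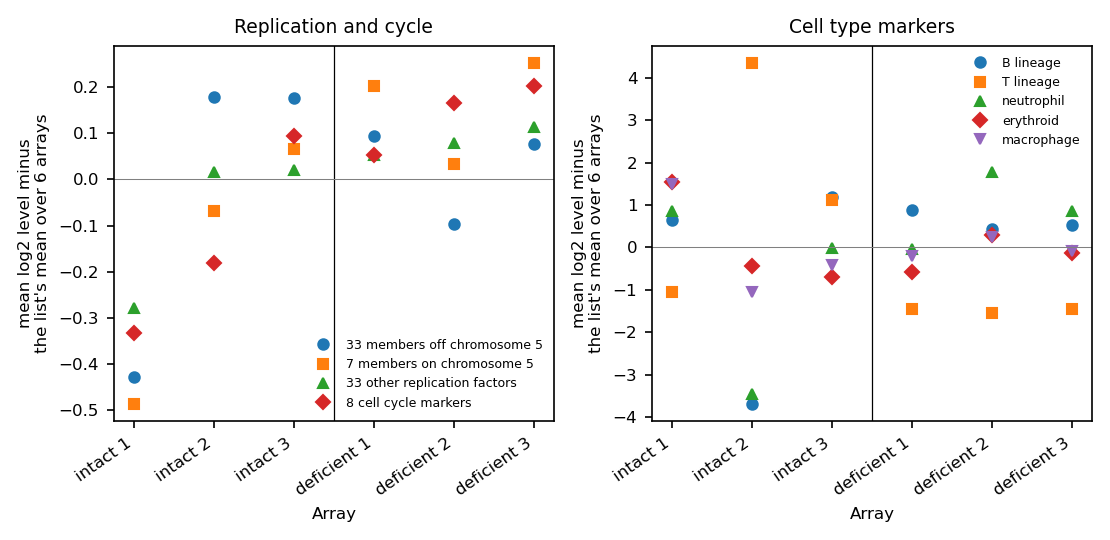
Mean log2 level of each gene list on each array, as the deviation from the list's mean over the 6 arrays, for replication and cell cycle lists (left) and cell type markers (right, on a wider scale). Cdh1-intact array 1 has the lowest mean of all 4 lists on the left, and Cdh1-intact array 2 the highest T-lineage and lowest B-lineage mean on the right.

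Other replication factors, 34 genes listed by function of which 33 were measured, had a median difference of 0.17 with 24 higher (72.7%). Of these 33 genes 0 passed the limma test after adjustment. All 33 lay among the more highly expressed genes. There the median was 0.09, 62.5% were above 0, 9.88% were separate and higher and 4.03% separate and lower. An unadjusted limma p under 0.05 was found for 8.38% of the genes there. At an unadjusted p under 0.05, 3 were higher and 1 lower (4.01% and 1.49% of all genes). The groups did not overlap for 4 higher genes (6.65% of all genes), Cdc7, Ung, Supt16 and Mcm9, and 1 lower gene (5.09% of all genes), Asf1a. Cdc7, the kinase that Dbf4 activates, lay at 8.77, 9.48 and 9.53 on the intact and at 9.92, 10.05 and 10.08 on the deficient arrays. All deficient values were higher, by 0.75 on average (SE 0.22, limma adjusted p = 0.849), or by 0.50 with the mean of both Cdc7 probe sets. Ung, which removes uracil from DNA, lay at 9.49, 10.09 and 9.98 against 10.56, 10.26 and 10.52, a difference of 0.595 (SE 0.19). Cdc7 and Ung also lie on chromosome 5, together with Orc5 of the origin recognition complex, which differed by 0.35 (SE 0.21).

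Supt16, a subunit of the histone chaperone FACT, had a difference of 0.48 (SE 0.13) and the lowest p of this list. It lay at 10.90, 10.60 and 10.82 on the intact and at 11.11, 11.36 and 11.30 on the deficient arrays. Here intact array 1 was not the lowest of the 6. Asf1a, a histone H3-H4 chaperone, differed by −0.27 (SE 0.10), at 11.22, 11.28 and 11.32 against 10.96, 10.94 and 11.11. Mcm9, a helicase related to the licensing helicase, differed by 0.17 (SE 0.13), and its groups lay 6.51 to 6.73 and 6.73 to 7.02, only just apart. Without intact array 1 the list kept a median above 0, at 0.08 with 23 of 33 higher. Among the more highly expressed genes the median was then 0.05, with 57.2% higher. Intact array 1 was the lowest of the 6 for 18 of these 33 genes, beside 28.8% of the more highly expressed genes.

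The promoter windows of the members, 250 bases before to 50 after the start in the same RefSeq table, held E2F letters more often than promoters at large. Windows were listed for 33 of the 41 genes, 39 windows in all. The E2F letters stood in 14 of the 39 (35.9%) beside 2.26% of 32851 windows in the table, and the genes were Cdc6, Cdt1, Clspn, Gins3, Lig1, Mcm3, Mcm5, Mcm6, Mcm7, Orc1, Pola1, Pold1, Pole2 and Rfc3. CCAAT stood in 24 (61.5% beside 37.4%), the E-box CACGTG in 6 (15.4% beside 7.15%) and TTTGAA, the cell cycle homology region (CHR) of mitotic genes, in 6 (15.4% beside 17.9%), counting both strands. Over the 18109 windows of genes tested the shares were 3.21% for E2F, 37.4% for CCAAT, 8.72% for the E-box and 13.4% for TTTGAA, so that the members lay below the whole table and above the tested genes for TTTGAA. Of the 14 genes with E2F letters 2, Mcm7 and Rfc3, lie on chromosome 5. A match is a description of letters and not of binding.

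Probe sets of the same gene did not always go together. The 40 members had 84 probe sets, 71 of them with a mean level of at least 6, and 10 members had a single probe set. Of 23 members with several probe sets at that level, 15 had all of them on the same side of 0. The 4 probe sets of Mcm7 lay at 0.16 to 0.21. Orc1, Orc2, Mcm3, Cdt1, Cdc45, Gins3, Pold1 and Clspn had probe sets on both sides. Of the 84 probe sets 6 were separate and higher in deficient cells, 3 of them those of Rfc2 (5.98% of all 34945 probe sets), and 3 were separate and lower (5.85%), 1 each of Orc2, Cdc45 and Prim2.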

How the data were processed

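Expression was measured on 6 one-colour Affymetrix arrays, 3 Cdh1-intact and 3 Cdh1-deficient, grouped by sample title. The deposited log2 values were made by the authors by RMA (named in the submitters' processing notes and deposited per the labels), which corrects background, equalizes distributions between arrays and summarizes probes per set. A change in total RNA per cell is therefore not visible. Array medians lay between 5.07 and 5.13. A genome build was not given in the sources used here.

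Of 45101 probe sets 34945 carried 1 symbol in the platform annotation, giving 18193 genes, each read from the probe set of highest mean, without a filter on level. The test was limma's moderated linear model (lmFit, eBayes, two-sided; limma 3.58.1, R 4.3.3), the tool the series description names, with Benjamini-Hochberg adjustment over all genes at 0.05; the script was tested on simulated data. An exact permutation of 3 against 3 arrays cannot go below 0.1 and was not used. Chromosomes came from RefSeq's GRCm38.p6 table by gene identifier.

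Members, role groups and lists were chosen with earlier results of these data known. Per-array values were given for members with separate groups or an unadjusted p under 0.05, the 3 highest and 3 lowest differences and the APC/C-Cdh1 targets; others added are examples chosen after their values were seen. Ssrp1 and some marker genes were not analysed here. Alternatives covered normalization, level filters, probe set choice, variance model, pairing and each array left out; leaving out chromosome 5, the shares over more highly expressed genes and the scale relative to the other members were added after seeing the data.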

Additional observations from a re-analysis of the deposited data

How the results depend on the processing

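The adjusted test called 0 of the 40 replication genes under each of the 16 alternatives. At an unadjusted p under 0.05 these called 1 to 7 features of the members, where 7 is over all 84 probe sets. Among all features tested they called 442 to 1983. The 442 are of 18193 genes, without Cdh1-deficient array 3, and the 1983 are of all 34945 probe sets. Over the alternatives that kept all arrays, the median difference of the members ran from 0.01 to 0.11. With each array left out in turn it ran from −0.16 to 0.21, the number of members higher from 9 to 34, the number with separate groups from 4 to 18 and the MCM helicase median from −0.12 to 0.21, with the low end of both medians and of the number higher, and the high end of the number separate, coming without Cdh1-intact array 1. With all probe sets tested, 49 of 84 were higher and 9 separate (5.98% of all probe sets separate and higher, 5.85% lower). With the mean of all probe sets 2 genes were separate, and with chromosome 5 left out 0 of 33 were. Of all genes 11.7% were separate with all arrays. Without Cdh1-intact array 1, 12.0% were separate and higher and 10.4% lower, so these counts are not directly comparable between settings. No share over all genes was taken for the mean of all probe sets. Among the named genes, Pole, Rfc1, Rfc2, Dbf4, Cdc7, Ung, Supt16, Asf1a, Chaf1b, Prim2 and Mcm9 kept their direction in the 14 or 15 alternatives that gave each a single value; all probe sets tested gave none, and Pole, Cdc7 and Ung had no value without shared-target probe sets. Others turned, among them Orc1 and Clspn, with differences of 0.37 and 0.29. With array weights Cdc6 was at 0.025, Cdt1 at 0.036 and Gmnn at 0.025. With the mean of all probe sets Cdt1 was at 0.0050, Clspn at −0.0010, Mcm5 at 0.028 and Orc1 at −0.030, and without shared-target probe sets Cdt1 was at 0.038. With each array left out Cdc6 ran from −0.36 to 0.17, Cdt1 from −0.075 to 0.10, Gmnn from −0.19 to 0.17, Mcm5 from −0.22 to 0.016 and Clspn from −0.065 to 0.48. Same-numbered arrays of the groups were treated as unpaired. Their deviations from the group means correlated across genes at −0.14, 0.01 and 0.04. Those of differently numbered arrays correlated at −0.21 to 0.22, so these values do not settle whether arrays were paired. With the replicate block the median difference was 0.07, 25 members were higher, 4 were separate and 0 passed. The cause of these changes was not tested. With 3 arrays per group, the 95% interval of a member's difference, before adjustment, extended a median of 0.54 to either side. This is not the limit of the adjusted test, which the difference of Pole, 0.61, did not pass either (limma adjusted p = 0.849).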
